A study of Homo sapiens with 21 samples.

Results

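The keratin family was taken as every protein-coding row of the count table whose gene symbol is KRT followed by a number, with an optional letter from A to C. It held 55 genes of the 58735 in the table, 29 type I and 26 type II. Keratins form the cytoplasmic intermediate filaments of epithelial cells. A filament is built from heterodimers that pair an acidic type I keratin with a basic or neutral type II keratin, so epithelial cells usually transcribe members of both types together. KRT8 and KRT18 are the pair of simple epithelia and hepatocytes, KRT7 and KRT19 are typical of bile ducts and other simple epithelia, and KRT5 and KRT14 are the pair of basal squamous cells. Hair and root sheath keratins belong to the hair follicle.

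RNA sequencing was done on cells carrying the label HepG2, an established human liver tumour line, with 3 libraries in each of 7 groups. Coumarin, a plant-derived fragrance compound, was given for 6 h at 0.001, 0.01, 0.1, 1, 10 or 100 µM, and the control group at 0 µM was untreated. All groups, controls included, were changed from medium with fetal bovine serum to serum-free DMEM for the exposure, and the stock was made in DMEM. The design calls the 3 samples of a group biological replicates, but nothing further says how the cultures were separated, so p-values measure the spread between these samples. Library totals were 27984517 to 43704155 counts, and 3 counts, the limit that a count of 0 allows, correspond to 0.0686 to 0.107 CPM (counts scaled to the library total), counting error only. Replicate pairs differed by more than sampling noise, with a chi-square per degree of freedom of 2.74 to 12.8 over 21 pairs.

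The label HepG2 and the hepatocyte markers did not match, and the keratins were mixed. None of the 13 hepatocyte genes examined exceeded 21 reads over the whole set of 21 libraries, 5 of them had none, and their summed level was 0.0569 to 0.0873 CPM at 100 µM and 0.0350 to 0.110 CPM in untreated libraries. ALB, which encodes serum albumin, was among those with no read. KRT8 and KRT18, the keratin pair of hepatocytes and of simple epithelia in general, were abundant. KRT7 was abundant too, while KRT19, the other marker of bile duct epithelium, had 1 read in all, in a library at 100 µM. The values below are those of the cells as sequenced under that label.

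The coding sequence at the start of the helical rod shows how alike the expressed type I keratins are and where reads of 1 keratin could be counted for another. A window of 66 bases was aligned to KRT17, read 5′ to 3′ on the coding strand from GENCODE 29 transcripts (GRCh38), with capitals for bases that differ from KRT17. The KRT17 window lies in exon 1 at chr17:41624174-41624239 on the minus strand. The most abundant type I keratins and the close relatives of KRT17 are shown.
KRT17: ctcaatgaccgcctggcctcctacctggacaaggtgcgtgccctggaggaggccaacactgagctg
KRT16: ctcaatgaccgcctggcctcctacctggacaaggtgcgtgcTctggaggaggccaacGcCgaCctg
KRT14: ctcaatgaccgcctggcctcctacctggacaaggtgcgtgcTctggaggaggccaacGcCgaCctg
KRT10: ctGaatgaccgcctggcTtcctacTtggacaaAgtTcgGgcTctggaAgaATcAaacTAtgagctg
KRT18: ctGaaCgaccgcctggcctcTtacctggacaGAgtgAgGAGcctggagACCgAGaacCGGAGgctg
KRT16 and KRT14 carry the same 66 bases here and differ from KRT17 at 4 of them, against 13 for KRT10 and 19 for KRT18.

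The coding sequences of KRT81 and KRT86, both type II hair keratins, shared an unbroken run of 605 bases. KRT83, a further type II hair keratin, shared runs of 95 bases with KRT81 and 77 with KRT86. The longest run that KRT17 shared with KRT16 was 61 bases and with KRT14 59 bases, and KRT16 and KRT14 shared 158. KRT8 and KRT80, both type II, shared a run of 65 bases. No source used here gives the authors' treatment of reads that match several genes. Counts of KRT81, KRT86, KRT83, KRT16 and KRT14 are therefore uncertain. The same limit holds for reads of KRT80, KRT8 and KRT17 that lie within their shared runs.

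The keratin genes lie in a pair of clusters, and transcription within them was concentrated in a few genes. The chromosome 12 cluster holds 27 of the 55 genes (chr12:52168996-52952901, GRCh38), all type II but KRT18, and the chromosome 17 cluster holds the other 28, all type I (chr17:40654665-41624842). In all, 27 keratins had no read in any library. A further 16 had reads but too few to be tested, 11 of them with 1 to 10 reads, and 12 passed the filter on low counts, 5 type I and 7 type II. The untested genes with the most reads were KRT12 with 62, KRT9 with 61, KRT34 with 60, KRT15 with 27 and KRT20 with 20.

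By class, 3 of 6 simple epithelial keratins passed the filter (KRT8, KRT18 and KRT7), as did 6 of 22 keratinocyte keratins, 3 of 17 hair keratins and 0 of 9 inner root sheath keratins. On chromosome 12, reads were found mainly at the cluster's ends, with KRT80, KRT7, KRT86, KRT81 and KRT83 on one side and KRT4, KRT8 and KRT18 on the other. KRT5, the type II partner of basal squamous cells, had 3 reads, and KRT13, a keratin of mucosal squamous epithelium, also had 3. KRT1 and KRT6A had none.

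**Figure D1:**
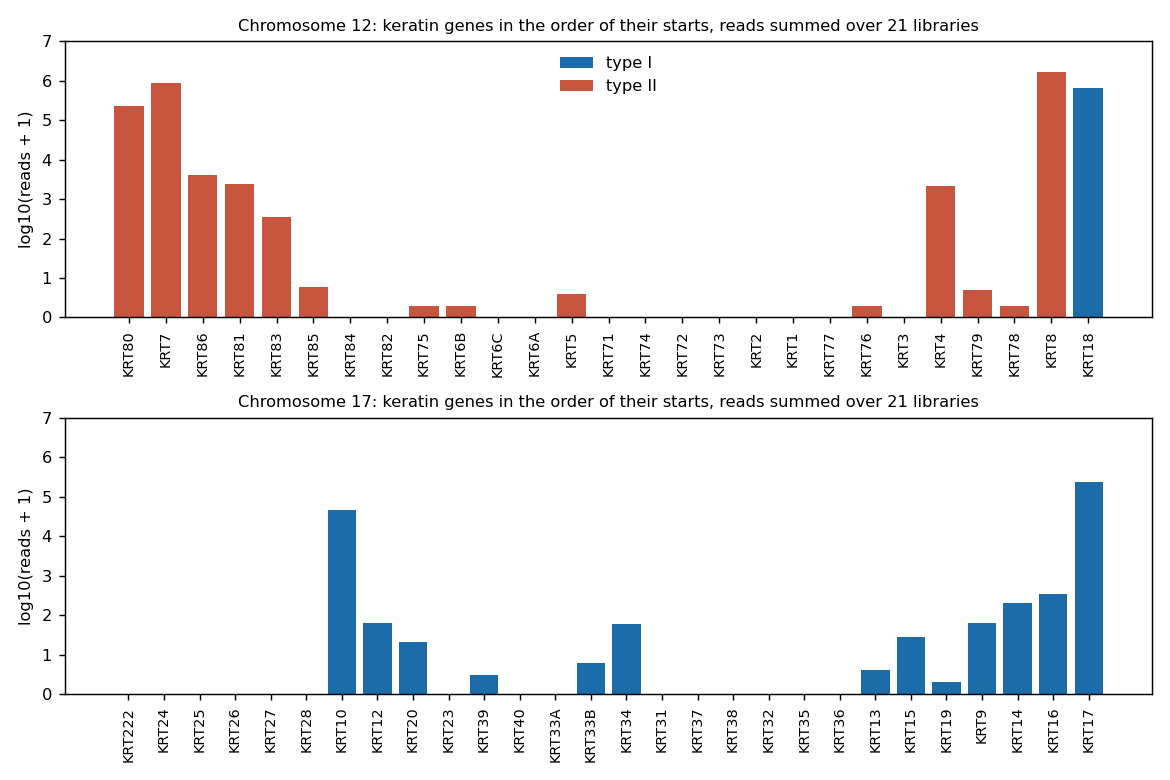
Reads of each keratin gene summed over the 21 libraries, on the y axis as log10(reads + 1), with genes along the x axis in the order of their starts on chromosomes 12 and 17 (blue, type I; red, type II). KRT8, with 1704667 reads, is the tallest bar, and 27 genes have none.

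In untreated cells the most abundant keratins were KRT8, KRT7 and KRT18, followed by KRT17, KRT80 and KRT10. Levels between genes are given as the authors' FPKM (fragments per kilobase of gene, scaled by library size). KRT8, the type II keratin of simple epithelia, stood at 354, 325 and 355 FPKM in the 3 untreated libraries. Its usual partner KRT18 stood at 298, 283 and 296 FPKM. KRT7, a type II keratin of ducts and glands, stood at 303, 277 and 313 FPKM. KRT8 was above both in every untreated library, and the ranges of KRT7 and KRT18 overlapped.

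KRT17, a type I keratin of injured or proliferating epithelium and hair follicles, averaged 97.9 ± 3.9 FPKM in untreated libraries (SD, n = 3). KRT80, a type II keratin found in many epithelia, averaged 75.3 ± 1.6 FPKM. KRT10, the type I keratin of suprabasal epidermis, averaged 28.0 ± 2.0 FPKM, although its epidermal partner KRT1 had no read. These 3 did not overlap with each other or with the 3 above them.

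A gap separated these 6 genes from the others. KRT86 averaged 2.44 ± 0.24, KRT81 1.74 ± 0.070 and KRT4, a keratin of mucosal squamous epithelium, 0.98 ± 0.12 FPKM in untreated libraries. KRT83, KRT16 and KRT14 averaged 0.29, 0.18 and 0.12 FPKM, and the range of KRT16 overlapped those of KRT83 and KRT14. In all, 8 keratins were at or above 1 FPKM in every untreated library, of which 5 were type II (KRT8, KRT7, KRT80, KRT86 and KRT81) and 3 type I (KRT18, KRT17 and KRT10).

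**Figure D2:**
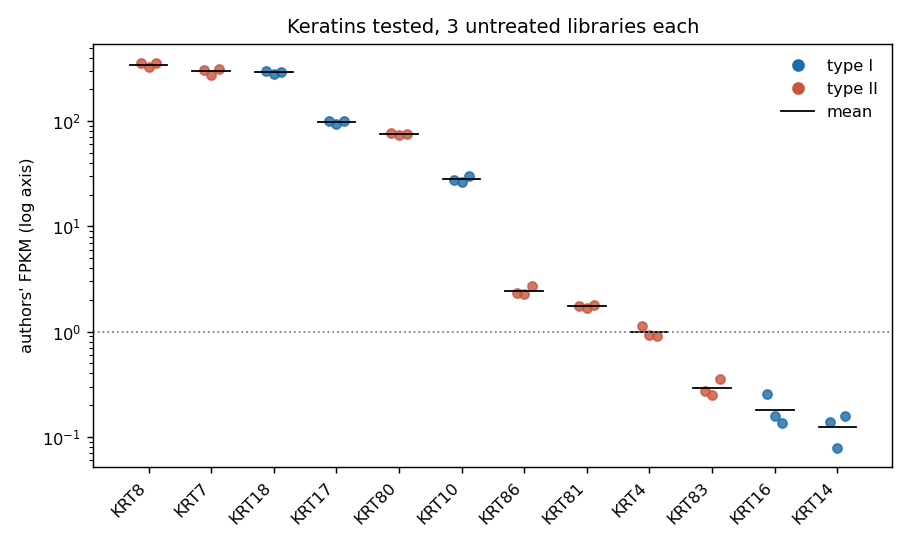
The 12 keratins tested, in order of level in untreated cells; each point is 1 of 3 untreated libraries (authors' FPKM, log axis), bars are means, blue is type I and red is type II. The 6 most abundant genes lie between 26.4 and 355 FPKM and the other 6 at or below 2.71 FPKM; the dotted line is 1 FPKM.

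Type II keratins made up 63.3 ± 0.48% of keratin FPKM in untreated libraries (SD, n = 3), a level of 723 ± 37 FPKM for type II and 419 ± 13 FPKM for type I. This share depends on the length used. The deposited length of KRT8 was 6881 bases while its principal transcript has 2126, and with principal transcript lengths the type II share was 69.9%, the lengths having been added after seeing the data. On that scale KRT8 averaged 1089 ± 48 CPM per kilobase in untreated libraries, KRT7 677 ± 39, KRT18 588 ± 13 and KRT17 181 ± 6.3, the same order, and KRT7 and KRT18 no longer overlapped.

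Some of these genes share sequence on the chromosome with a neighbour. KRT8 and KRT18 overlap by 1084 bases on opposite strands. KRT7 overlaps the start of KRT86 by 2887 bases on the same strand and its antisense gene KRT7-AS on the other, and KRT86 overlaps KRT81. KRT10, with 46251 reads in all, overlaps TMEM99, with 8164, by 3490 bases on opposite strands. No source used here says whether the authors' counting used strand, so reads in these stretches cannot be assigned to 1 gene with certainty. KRT16 and KRT14 counts were 0.142% and 0.085% of the KRT17 count on average over the 21 libraries.

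Keratin pseudogenes were assigned few reads. Of 149 pseudogene and antisense rows, 63 had a read. The 50 KRT8 pseudogenes together had 0.478% of the reads of KRT8, and the 67 KRT18 pseudogenes 0.108% of those of KRT18. The rows with the most reads were KRT7-AS with 8523, KRT8P12 with 3333 and KRT87P with 2103. KRT8P33 and KRT8P3 shared unbroken runs of 133 and 129 bases with KRT8. The authors' treatment of reads that match several genes is not known, so the pseudogene shares are uncertain.

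At 100 µM coumarin, 4 of the 12 keratins tested differed from untreated cells, KRT80, KRT18 and KRT4 lower and KRT17 higher (edgeR quasi-likelihood test, Benjamini-Hochberg adjusted p under 0.05). Over all 16196 genes tested, 8.58% were called at this dose, 3.77% higher and 4.82% lower. The changes were small, and the median log2 fold change was -0.073 over the 12 keratins and 0.0025 over all genes tested. Because bulk RNA was measured, fewer cells of a type and less RNA per cell cannot be told apart. All levels compared between doses are CPM scaled by TMM.

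KRT80 stood at 262, 269 and 260 CPM at 100 µM, against 324, 314 and 320 CPM in untreated cells. The groups did not overlap, and all 3 libraries at 100 µM lay below all 18 others. The log2 fold change was -0.28 (SE 0.035, edgeR adjusted p = 1.37e-06). At 0.001 to 10 µM its group means were 323 to 336 CPM, so that the fall was seen at the highest dose.

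KRT18 stood at 800, 785 and 813 CPM at 100 µM, against 931, 895 and 928 CPM in untreated cells. The groups did not overlap. The log2 fold change was -0.20 (SE 0.037, edgeR adjusted p = 0.00051). KRT8 stood at 2177, 2132 and 2157 CPM at 100 µM, against 2364, 2196 and 2383 CPM in untreated cells, and the groups did not overlap here either. Its log2 fold change of -0.10 did not pass the threshold (SE 0.039, 95% interval -0.18 to -0.023, edgeR adjusted p = 0.097), but it passed without untreated replicate 2 (adjusted p = 0.039).

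KRT17 stood at 340, 330 and 329 CPM at 100 µM, against 304, 287 and 306 CPM in untreated cells. Every library at 100 µM was above every untreated one, with a log2 fold change of 0.15 (SE 0.045, edgeR adjusted p = 0.027). This call was lost, with the direction kept, without untreated replicate 1 or 2 or any replicate at 100 µM (adjusted p 0.053 to 0.15), and with an offset for gene length (adjusted p = 0.10).

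KRT4 was far less abundant, at 2.57, 2.36 and 1.69 CPM at 100 µM, against 3.61, 3.01 and 2.92 CPM in untreated cells. These rest on 219 reads at 100 µM and 316 in untreated cells. The log2 fold change was -0.54 (SE 0.16, edgeR adjusted p = 0.035), and the call was lost without untreated replicate 1 or 2 or without replicate 2 or 3 at 100 µM (adjusted p 0.052 to 0.21).

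The other 7 keratins and KRT8 were not called at 100 µM. KRT7 had a log2 fold change of -0.060 (95% interval -0.15 to 0.028, edgeR adjusted p = 0.43), with 1175, 1113 and 1130 CPM at 100 µM against 1203, 1113 and 1248 CPM in untreated cells, ranges that overlapped. KRT10 had a log2 fold change of 0.14 (95% interval 0.039 to 0.24, edgeR adjusted p = 0.071). KRT10 was called without untreated replicate 3 (adjusted p = 0.010), the untreated library in which it was highest, and narrowly without replicate 1 at 0.1 µM (adjusted p = 0.0497). KRT86, KRT81, KRT83, KRT16 and KRT14 had adjusted p of 0.56 to 0.99, with intervals as wide as -0.59 to 1.2 for KRT14. The groups at 100 µM and untreated did not overlap in 6 of the 12 keratins, 4 of them lower, against 27% of all genes tested.

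**Figure D3:**
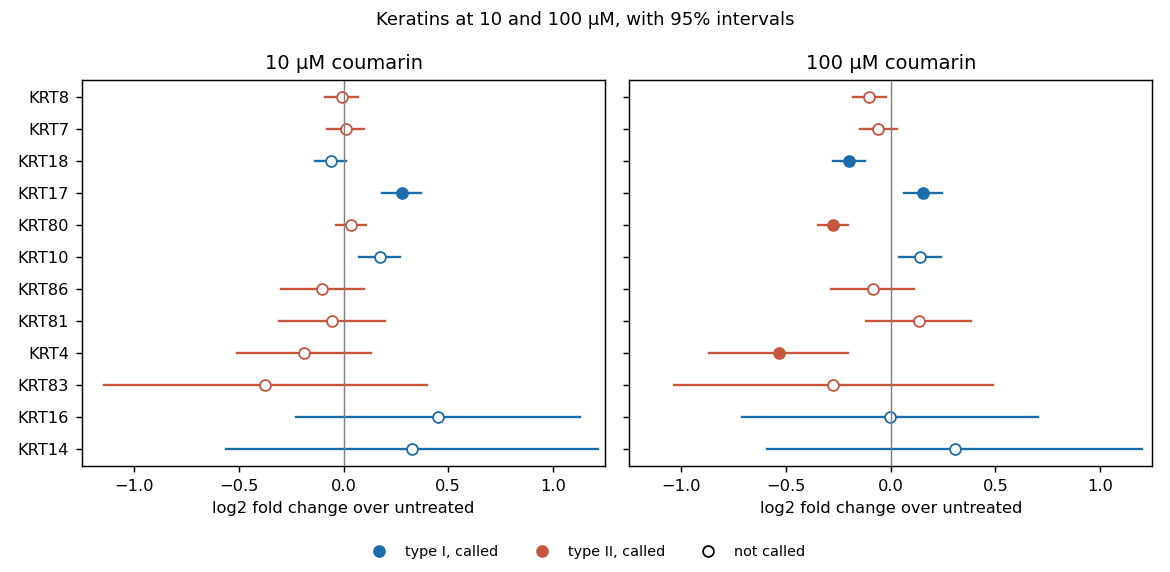
Log2 fold change over untreated cells (x axis) of the 12 keratins at 10 µM (left) and 100 µM (right), with 95% intervals; filled points were called, blue is type I and red is type II. KRT17 is called at both doses, KRT18, KRT80 and KRT4 at 100 µM, and the 3 least abundant genes have the widest intervals.

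KRT7-AS, transcribed from the strand opposite KRT7, was the 1 call among 9 pseudogene and antisense rows tested at 100 µM (log2 fold change -0.35, SE 0.10, edgeR adjusted p = 0.024), while KRT7 itself was not called. The share over all genes tested was 8.58%. KRT7-AS shares 2401 bases with KRT7. Reads in that stretch cannot be assigned to 1 gene with certainty, since no source used here says whether counting used strand.

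At 10 µM, KRT17 was the 1 keratin of 12 called, against 0.321% of all genes tested, 0.241% higher and 0.0803% lower. KRT17 stood at 370, 373 and 344 CPM at 10 µM, against 304, 287 and 306 CPM in untreated cells, a log2 fold change of 0.28 (SE 0.045, edgeR adjusted p = 0.0025). No library of the groups overlapped. The call was lost with limma on log2(FPKM + 1), at a log2 fold change of 0.28 (adjusted p = 0.051). KRT10 stood at 65.7, 64.4 and 67.9 CPM at 10 µM, against 56.8, 55.5 and 63.3 CPM in untreated cells, and was not called (log2 fold change 0.17, edgeR adjusted p = 0.11); without untreated replicate 3 it was (adjusted p = 0.037). KRT80 and KRT18 were not called at 10 µM, with log2 fold changes of 0.037 (95% interval -0.035 to 0.11) and -0.062 (95% interval -0.14 to 0.014).

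At 0.001, 0.01, 0.1 and 1 µM, edgeR called 0 of the 12 keratins and 0% of all genes tested. At an unadjusted p under 0.05 the keratins numbered 2, 2, 1 and 0 in that order of dose, and all genes 1330, 1415, 987 and 609 of 16196. The lowest p-values belonged to KRT17 at 0.1 µM (log2 fold change 0.20, adjusted p = 0.30) and KRT10 at 0.001 µM (log2 fold change 0.20, adjusted p = 0.57). DESeq2 and limma also called 0 keratins at these doses. Groups did not overlap in 3 of 12 keratins at 0.001 µM against 12.2% of all genes tested, in 2 at 0.01 µM against 14.6%, in 3 at 0.1 µM against 8.99%, in 1 at 1 µM against 8.19% and in 3 at 10 µM against 16.7%. All dose comparisons share the same 3 untreated libraries.

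**Figure D4:**
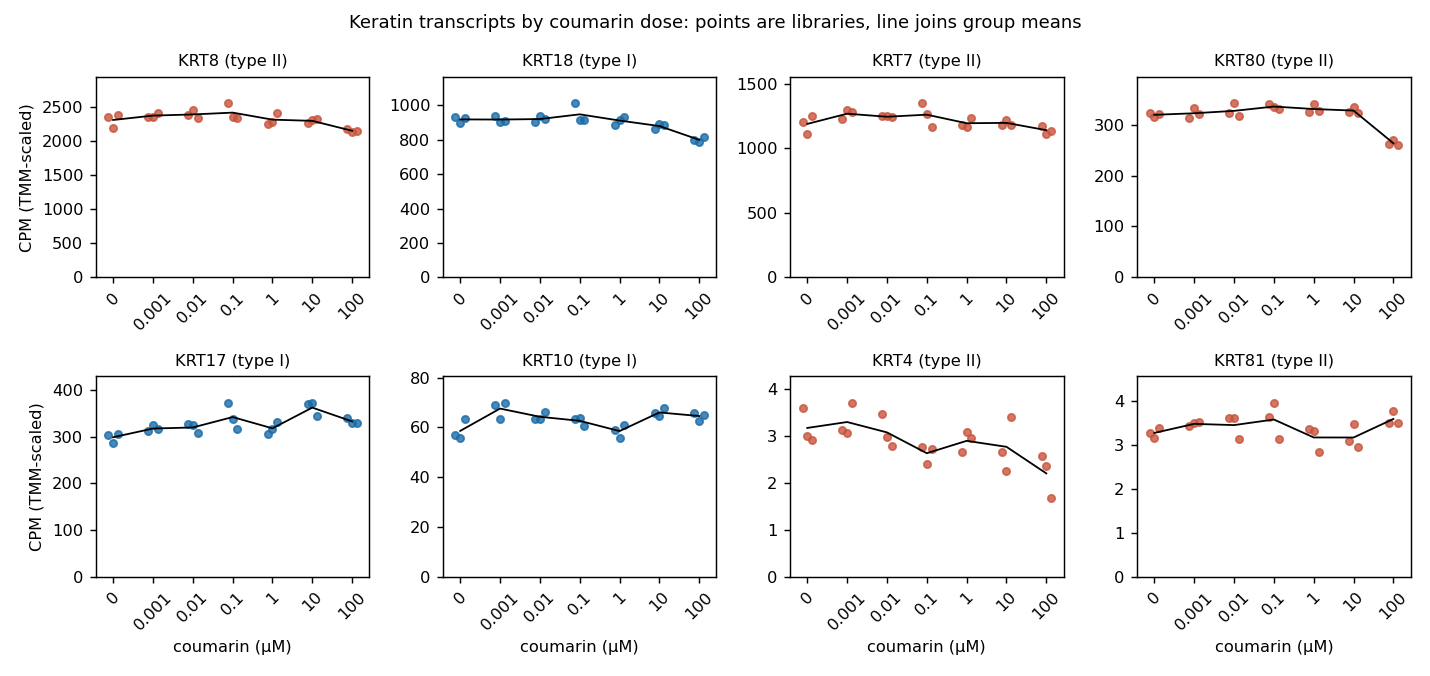
TMM-scaled CPM (y axis, from 0) of 8 keratins by coumarin dose in µM (x axis); points are libraries and the line joins group means. KRT80 is level up to 10 µM and drops at 100 µM, KRT18 is lowest at 100 µM, and KRT17 is highest at 10 µM.

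The linear trend over log10 dose used the 18 treated libraries and not the controls. It was called for 5 of 12 keratins, all lower with dose, against 4.45% of all genes tested, 1.93% higher and 2.52% lower. Per 10-fold dose the log2 change was -0.042 for KRT80 (SE 0.0060, edgeR adjusted p = 1.05e-05), -0.036 for KRT18, -0.029 for KRT7, -0.027 for KRT8 and -0.092 for KRT4. Without the 100 µM dose 0 keratins were called for the trend. The slope of KRT80 was then 0.0062 (edgeR adjusted p = 0.85), while KRT18 (-0.014), KRT7 (-0.023), KRT8 (-0.014) and KRT4 (-0.057) kept their direction with edgeR adjusted p of 0.42 to 0.61. The trend of KRT7 was not called without replicate 2 at 0.001 µM or replicate 2 or 3 at 100 µM (edgeR adjusted p 0.053 to 0.067), nor that of KRT4 without any 1 of 9 libraries, spread over 0.001, 0.01, 10 and 100 µM (edgeR adjusted p 0.054 to 0.21). The trend of KRT17, 0.022 per 10-fold dose (edgeR adjusted p = 0.10), was called without replicate 1 at 0.1 µM (adjusted p = 0.023). The F-test over the 7 groups called 4 of 12 keratins, KRT80, KRT18, KRT17 and KRT10, against 4.65% of all genes tested. KRT10 lost that call without untreated replicate 1 or replicate 2 at 1 µM, and KRT8 gained it without untreated replicate 2, replicate 3 at 0.1 µM or replicate 3 at 1 µM.

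The balance between type I and type II keratins moved little. Type II keratins made up 63.0 ± 0.28% of keratin FPKM at 100 µM and 63.3 ± 0.48% in untreated cells (SD, n = 3 each). All keratins together took 0.482 ± 0.0083% of counts at 100 µM and 0.514 ± 0.015% in untreated cells, and these groups did not overlap. Of all single genes tested, 27% did not overlap in CPM at this dose. Some ratios between single genes differed more. The ratio of KRT17 to KRT18, both type I, was 0.356 ± 0.014, 0.357 ± 0.016, 0.371 ± 0.013 and 0.359 ± 0.0062 at 0.001, 0.01, 0.1 and 1 µM, 0.424 ± 0.021 at 10 µM and 0.428 ± 0.011 at 100 µM, against 0.335 ± 0.0048 in untreated cells (SD, n = 3 each). No treated group overlapped the untreated one in this ratio, with the same 3 untreated libraries in every comparison. The share of other gene pairs that did so was not computed. The ratio of KRT18 to KRT8 was 0.793 ± 0.011 at 100 µM and 0.849 ± 0.020 in untreated cells. The ratio of KRT80 to KRT7, both type II, was 0.218 ± 0.0091 at 100 µM and 0.253 ± 0.012 in untreated cells. The groups did not overlap in KRT18 over KRT8 or in KRT80 over KRT7, and the share of other gene pairs was not computed here either. The ratio of KRT7 to KRT8 was 0.889 ± 0.016 at 100 µM and 0.863 ± 0.016 in untreated cells, and these groups overlapped. These ratios are described without a test.

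**Figure D5:**
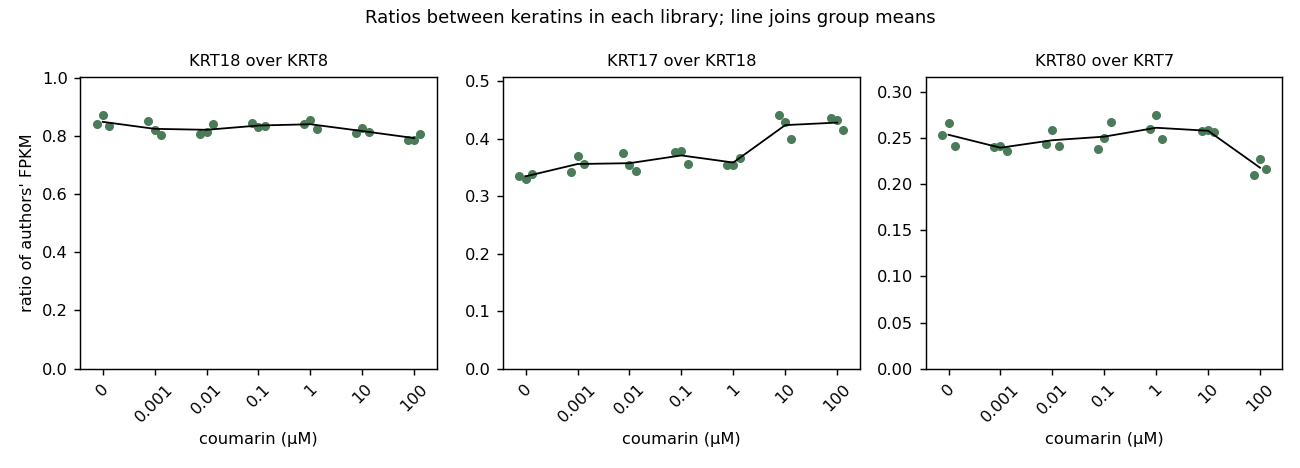
Ratios of the authors' FPKM between keratins in each library (y axis, from 0) by coumarin dose in µM (x axis); points are libraries and the line joins group means. KRT17 over KRT18 lies above all untreated libraries at every coumarin dose, most so at 10 and 100 µM. KRT80 over KRT7 lies below all untreated libraries at 100 µM. All doses share the same untreated libraries, the ratios were not tested, and the share of other gene pairs not overlapping was not computed.

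Genes that act with keratins were read from lists. Of 24 desmosome, hemidesmosome, plakin and keratin-binding genes, 16 were tested and 2 were called at 100 µM, both lower, against 8.58% of all genes tested. The list median log2 fold change was -0.091, against 0.0025 over all genes tested. PKP2, which encodes the desmosomal plaque protein plakophilin-2, fell by 0.19 on the log2 scale (SE 0.045, edgeR adjusted p = 0.0060), and EPPK1, which encodes the keratin-binding epiplakin, fell by 0.22 (SE 0.065, edgeR adjusted p = 0.032). DSP, the desmoplakin gene that anchors keratins to desmosomes, averaged 118 ± 2.3 CPM at 100 µM and 122 ± 1.0 CPM in untreated cells and was not called.

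Of 20 regulators of keratin genes, 13 were tested, and 2 rose and 3 fell at 100 µM, against 3.77% higher and 4.82% lower over all genes tested. ELF3, an epithelial ETS factor, averaged 14.2 ± 0.69 CPM at 100 µM and 25.1 ± 0.79 CPM in untreated cells (log2 fold change -0.83, SE 0.069, edgeR adjusted p = 1.35e-10). CEBPB, a leucine zipper factor, averaged 63.3 ± 4.7 CPM at 100 µM and 39.0 ± 2.7 CPM in untreated cells (log2 fold change 0.70, edgeR adjusted p = 1.21e-09). KLF4, a factor of differentiating epithelia, rose by 0.78 and RARG, a retinoic acid receptor, fell by 0.37 on the log2 scale (edgeR adjusted p = 1.6e-07 and 1.14e-06). EHF, a further ETS factor, was the third that fell.

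Markers of other cell types in these libraries were read the same way. Of 8 other intermediate filament genes tested, of 15 listed, 0 were called at 100 µM by edgeR, against 8.58% of all genes tested. In the same test 1 of the 8 (SYNM) had an unadjusted p under 0.05, against 3735 of all 16196 genes. VIM, the mesenchymal filament vimentin, averaged 278 ± 2.3 CPM at 100 µM and 278 ± 3.4 CPM in untreated cells. Of 14 mesenchymal genes tested, of 15, 1 rose (SNAI2) and 3 fell (PDGFRB, FAP and COL3A1) at 100 µM, against 3.77% higher and 4.82% lower over all genes tested, and the list's summed level was 1836 to 1896 CPM at 100 µM and 1892 to 1949 CPM in untreated cells. Of 13 bile duct and simple epithelium genes 10 were tested, 7 had a mean of at least 1 CPM and 1 had no read (EPCAM, a surface marker of simple epithelia). That list's summed level was 430 to 450 CPM at 100 µM and 430 to 465 CPM in untreated cells. Of its 10 tested genes 0 rose and 1 fell at 100 µM, against 3.77% higher and 4.82% lower over all genes tested. Of 19 squamous differentiation genes 17 had at most 21 reads. Of the 2 tested, 1 was called at 100 µM, against 3.77% higher and 4.82% lower over all genes tested. That was TGM1, a transglutaminase gene, which fell by 0.41 (edgeR adjusted p = 0.00028). The part of these marker genes in the keratin results was not tested.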

How the data were processed

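Members, gene lists and tests were chosen with earlier results of these data known. Reads were processed by the authors. The submitters' processing notes list HISAT2, DESeq2 and GRCh38 with no roles; no source used here gives the counting tool, its strand setting or the annotation. The deposited counts are whole numbers per gene. The authors' deposited FPKM equal those counts over gene length and a constant per library. RNA was selected with poly(dT) beads, per the labels' protocols.

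Counts were tested with edgeR 4.0.16 in R 4.3.3: filterByExpr, TMM, and 1 quasi-likelihood fit of 21 libraries with 14 residual degrees of freedom, Benjamini-Hochberg over 16196 genes. The fit used edgeR's robust option. The planned design did not name that option, and it was set after the keratin calls without it had been seen, because it gave the counts of called genes of an earlier analysis; the fit without it is among the alternatives. Standard errors derive from the fold change and F. Windows and transcript lengths come from GENCODE 29, in which all 55 keratins have the files' positions. Every keratin tested is named, with the 5 untested that had the most reads. Further untested keratins are named as markers of cell types. Of other lists, up to 4 called genes with the smallest p are named. A few further list genes were named after their values were seen. In simulated counts for 100 µM against untreated (16196 genes), edgeR recovered 68% of 50 genes given a log2 change of 0.322. The changed genes were drawn from those with a mean log2 CPM over 1. Smaller changes and less abundant genes were not simulated. Replicate numbers were not used in the fit, since the labels state no covariate. In a check run after the fit, same-numbered libraries did not deviate together (r -0.16 to 0.16 over 63 pairs). Alternatives were DESeq2 1.42.0 and its size factors, limma 3.58.1 on log2(FPKM + 1) and log2(FPKM + 0.1), other filters, a replicate block, a gene length offset, fits of 6 libraries, and each library or dose left out. Some items are not reported here.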

Additional observations from a re-analysis of the deposited data

How the results depend on the processing

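The robust option was chosen after seeing the data. Without it edgeR called 1371 genes in place of 1390 at 100 µM and 53 in place of 52 at 10 µM, and the same keratins were called: KRT80, KRT18, KRT17 and KRT4 at 100 µM and KRT17 at 10 µM. KRT80 and KRT18 kept their calls at 100 µM in every alternative run. With no filter, 1 keratin was called at 0.001 µM (KRT10), 1 at 0.1 µM (KRT17) and 2 at 10 µM, where 302 genes were called in all, against 52 with the filter. DESeq2 called 155 genes at 10 µM. Limma on log2(FPKM + 1) called 0 keratins at 10 µM, 2 at 100 µM, 3 for the trend and 2 over the 7 groups; on log2(FPKM + 0.1) it called 2, 2 and 2 for the last 3. At 10 µM it called 17 and 27 genes. Leaving the 100 µM dose out of the trend, an alternative added after seeing the data, gave 0 keratins and 50 genes in place of 721, and the slope of KRT80 became 0.0062; the contrast then has 5 doses. For the other settings the cause was not tested. The type II share was 75.0% with CPM and 69.9% with principal transcript lengths.

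Leaving out each library gave 1 to 2 keratins at 10 µM, 2 to 5 at 100 µM, 3 to 6 for the trend, 3 to 6 over the 7 groups and 0 at each lower dose; genes called in all were 7 to 163 at 10 µM and 720 to 1804 at 100 µM. The count at 100 µM was 2 without untreated replicate 1 and without replicate 2 or 3 at 100 µM. The trend count was 3 without replicate 2 at 0.001 µM or replicate 2 or 3 at 100 µM. With the replicate block, 5 keratins were called at 100 µM (KRT10 added, adjusted p = 0.0498), 1 at 10 µM, 5 for the trend and 4 over the 7 groups. With the replicate block and the gene length offset together, 3 were called at 100 µM (KRT17 lost, adjusted p = 0.11), 1 at 10 µM and 4 for the trend (KRT8 lost, adjusted p = 0.053). In the pairing check 8 of 21 libraries correlated best with their own number. At this depth KRT83, KRT16 and KRT14, with 204 to 355 reads in all, could not show small changes.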
